A study of Mus musculus with 2 samples.

Results

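Plasmacytoid dendritic cells (pDC) are bone marrow-born immune cells that sense viral nucleic acids in endosomes through Toll-like receptors and answer with type I interferon. The E protein TCF4 keeps their identity, with RUNX2, SPIB, BCL11A and IRF8 beside it. In mice their surface carries Siglec-H, BST2 and, on mature cells, the homing receptor CCR9. They arise in the marrow from dendritic progenitors that need the receptor FLT3, and from lymphoid progenitors.

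The 474 pDC described here were found among 28382 kept cells of bone marrow profiled by single-cell RNA sequencing. A cell was counted as a pDC if it held at least 2 counts of Siglech, a count of at least 1 of Ccr9, Tcf4, Cox6a2 and Bst2, and no count of C1qa (macrophages), Ms4a1 (B cells) or Cd3e (T cells). Cells were kept with 200 or more genes and no more than 20% of counts from mitochondrially encoded genes. The marrow of C57/BL6 mice was taken from femurs and tibias. Mice of the control library had been given sodium citrate solution, and had normal blood sugar. The library held 399 pDC among 12803 kept cells. The T1D library was from mice given streptozotocin, a toxin of the insulin-producing beta cells that is used to model type 1 diabetes, with high blood sugar, and held 75 pDC among 15579 kept cells. The number, age and sex of the mice, and whether animals were pooled, were not stated in the sources at hand. With 1 library per group no test between groups was possible. Every interval below is a 95% interval of counting error only, and a difference describes these 2 libraries.

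The rule reads counts, so the levels of its 8 genes are a description of the choice. At least 2 Siglech counts were found in 449 control and 76 T1D cells. Of these, 4 and 1 had none of the 4 further markers, and 46 and 0 were left out for a count of an exclusion gene, 41 of the control cells for Ms4a1. Siglech counts per pDC ran from 2 to 39 with a median of 10 in control, and from 2 to 27 with a median of 7 in T1D. Just outside the threshold lay 26 control and 11 T1D cells with 1 Siglech count, with Irf8 at 1170.0 and 1890.2 CPM (counts scaled to a total of 1000000). Just inside lay 27 and 9 pDC with 2 Siglech counts, with Irf8 at 2051 and 1996 CPM. All values below are given for control first and T1D second.

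The pDC had median totals of 3837 and 3442 counts, and 1822908 and 305232 counts in all, so a T1D value rests on far fewer counts. The medians over all kept cells were 3633 and 2757 counts. The libraries had 253 cell barcodes in common, carried by 17 control and 2 T1D pDC. The 14 pDC markers summed to 11025 and 9236 CPM, against 383 and 196 CPM in all other kept cells. Among markers the rule did not use, those at 0 counts in both libraries' pDC included the NK cell gene Ncr1 and the macrophage genes C1qc, Mertk and Cd5l. The 10 macrophage markers, with C1qa held at 0 by the rule, summed to 34.0 and 45.9 CPM in pDC and 219 and 254 CPM in other cells, and the 8 NK cell markers to 48.3 and 52.4 CPM and 123 and 113 CPM. The 8 T cell markers, with Cd3e held at 0 by the rule, summed to 77.3 and 22.9 CPM and 66.9 and 55.2 CPM. Cd3d had 5 and 1 counts in pDC and Cd3g 2 and 0 counts, while Cd8a had 58 and 2 counts and Cd28 48 and 2 counts. The 10 conventional dendritic cell markers summed to 628 and 999 CPM, against 170 and 136 CPM in other cells. The 9 erythroid markers summed to 1213 and 1366 CPM, against 1734 and 1878 CPM. Basophil or mast cell markers were at 11.5 and 413 CPM, against 399 and 178 CPM. The 7 plasma cell markers were at 365 and 55.7 CPM, against 1964 and 1643 CPM. The 10 B cell markers, with Ms4a1 held at 0 by the rule, were at 215 and 36.0 CPM, against 636 and 104 CPM.

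Counts of another lineage were present in a subset of the pDC. The 13 neutrophil markers took more than 1% of the counts of 84 control pDC (21.1%) and 26 T1D pDC (34.7%), with medians of 0.199% and 0.382% and a highest value of 16.3% in both. Over the markers of 10 other lineages, 96 control (24.1%, 19.9 to 28.6) and 28 T1D pDC (37.3%, 26.4 to 49.3) lay above 1%. These cells were deeper, with median totals of 5772 and 4111 counts against 3535 and 2879 in the rest. The rest, 303 control and 47 T1D cells, are called low-load pDC. The neutrophil markers summed to 22742 and 33388 CPM in all pDC and to 1793 and 2926 CPM in low-load pDC. The monocyte markers, some of which pDC also express, summed to 3251 and 3653 CPM, against 5236 and 5852 CPM in other cells, and were not used for this split. Results are therefore given for all pDC and for low-load pDC, and the part of doublets or free RNA in them was not tested.

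**Figure D1:**
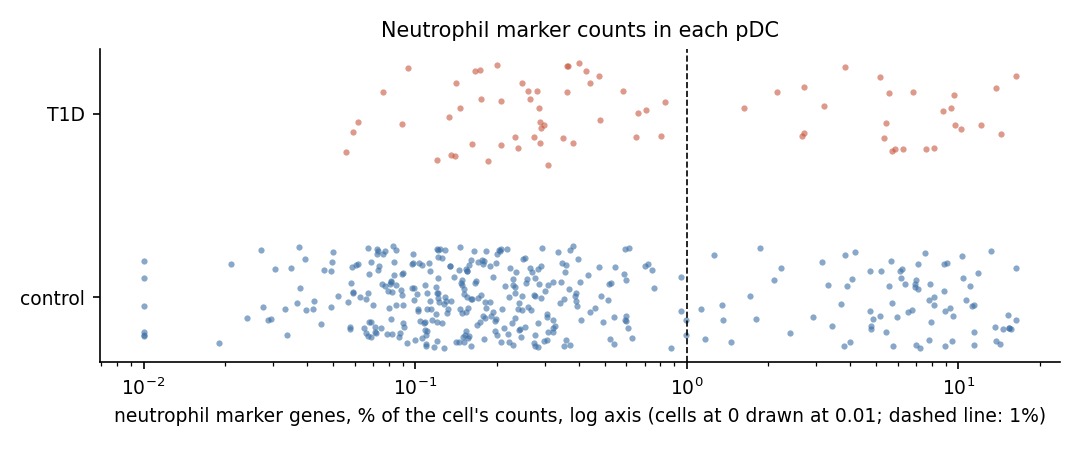
Neutrophil marker genes as a percentage of each pDC's counts (horizontal log axis, cells at 0 drawn at 0.01), 1 point per cell, spread vertically within the control and T1D rows. 84 control and 26 T1D pDC lie to the right of the dashed line at 1%.

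pDC were a smaller share of the T1D marrow. They made up 3.12% (2.82 to 3.43) of kept cells in control and 0.481% (0.379 to 0.603) in T1D, 6.47-fold lower in T1D (5.05 to 8.40). After every cell was thinned to 1000 counts before membership was decided, 247 and 36 pDC were left, a share 8.35-fold lower in T1D (5.87 to 12.2). Low-load pDC made up 2.37% (2.11 to 2.64) and 0.302% (0.222 to 0.401), 7.84-fold lower in T1D (5.75 to 10.9). The intervals of these folds exclude 1 at either depth and either membership. A share also depends on the other cells of its library. Conventional dendritic cells, which present antigen to T cells and were chosen by at least 2 counts of H2-Aa with a count of Cd209a, Clec9a or Xcr1, made up 0.617% (0.489 to 0.768) and 0.128% (0.0784 to 0.198), 4.81-fold lower in T1D (2.91 to 8.29). B cells, with at least 2 counts of Cd79a and 1 of Ms4a1, made up 3.96% (3.63 to 4.31) and 0.244% (0.173 to 0.335), 16.2-fold lower in T1D (11.7 to 23.2). The difference between these folds was not tested. With cells holding a Cd79a count left out of numerator and denominator, the pDC share was 7.27-fold lower in T1D (5.66 to 9.46).

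**Figure D2:**
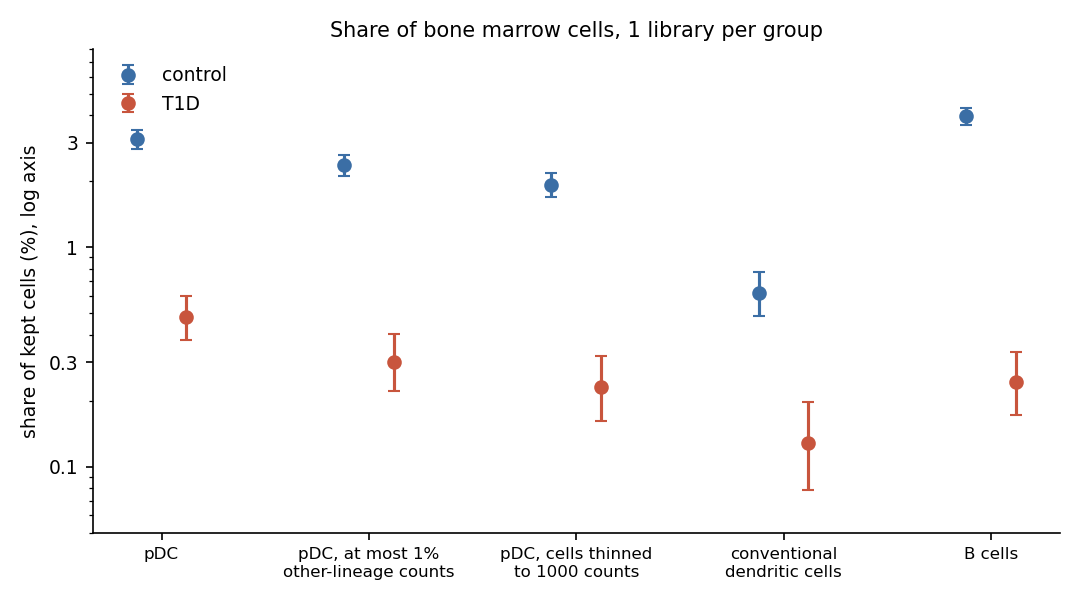
Share of kept cells (%, log axis) for pDC, low-load pDC (at most 1% other-lineage counts), pDC after thinning to 1000 counts, conventional dendritic cells and B cells. Points are 1 library each and bars are exact 95% intervals, and the T1D point lies below the control point in all 5 pairs.

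The 20 genes with the highest level in pDC over all other kept cells, ranked by the library with the lower ratio, were Siglech, Ccr9, Ccnd1, Bst2, Cd7, Runx2, Cd300c, Kmo, Irf8, Tcf4, Lag3, Cox6a2, Lifr, Cd209d, Mycl, Upb1, Pacsin1, Cdh5, Ptprf and Rnase6. Cells chosen by Siglech carry such genes by construction, so these values are a description. Ccnd1, which encodes cyclin D1, was at 424 and 331 CPM in pDC and at 7.73 and 4.57 CPM in other cells. Runx2, a transcription factor of pDC, was at 1083 and 1101 CPM against 33.2 and 27.7 CPM. Lifr, the receptor of leukemia inhibitory factor, was at 208 and 298 CPM against 7.34 and 14.6 CPM. Mycl, a MYC-family factor of dendritic cells, was at 83.9 and 102 CPM against 0.829 and 0.292 CPM. Each stood far above the other cells in both libraries.

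Within pDC, a gene was called if its CPM, with 5 CPM added to both, differed at least 2-fold between the libraries, if it reached 50 CPM in the higher one, and if the interval of the ratio excluded 1. Of 5599 genes measured (a mean of at least 20 CPM), 134 were called higher in T1D (2.39%) and 159 lower (2.84%). The median log2 ratio of T1D over control was 0.04, and -0.06 with TMM scaling, under which 90 genes were called higher and 204 lower. With median-ratio scaling 99 were called higher and 192 lower. Of the called genes named below, Bcl2, Ccr1 and Igf1r were not called with TMM scaling. In low-load pDC 286 of 5590 genes were called higher (5.12%) and 172 lower (3.08%), including 82 of the 134 and 98 of the 159. In all other kept cells, whose sums are far deeper, 0.493% were called higher and 1.2% lower. Of the genes called lower in pDC, 148 of 159 also had a ratio below 1 in the other cells, and of those called higher 80 of 134 had one above 1. Over all 5073 genes measured in the other cells, 3182 had a ratio below 1 and 1891 above. Over all 5599 genes measured in pDC, 2618 had one below 1 and 2981 above. By the same rule 6.39% of genes were called higher and 2.9% lower in conventional dendritic cells, and 4.82% and 5.15% in B cells.

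The transcription factor genes Irf8 and Runx2 stood at like levels in the 2 libraries, while a group of surface and effector genes of the same identity list was lower in T1D. Of 43 measured genes, 33 had a ratio below 1 and 10 above, with 11 called lower and 0 higher. The median log2 ratio was -0.50, against -0.55 for the same genes in other cells. In low-load pDC it was -0.49, with 9 called lower. Irf8, a factor of dendritic lineages, was at 2655 and 2555 CPM, a ratio of T1D over control of 0.962 (0.891 to 1.04). Runx2 was at 1083 and 1101 CPM, a ratio of T1D over control of 1.02 (0.902 to 1.14). Tcf4, which the rule used, was at 912 and 1134 CPM, and Siglech, on which the rule rests, at 2376 and 1884 CPM. Bcl11a, needed for pDC development, was at 371 and 298 CPM and Zeb2 at 389 and 324 CPM, and neither was called. Spib, an ETS-family factor, was called lower, at 241 and 108 CPM (440 and 33 counts), 2.23-fold lower in T1D (1.57 to 3.28). In low-load pDC it was at 280.4 and 144 CPM, a log2 ratio of -0.94, and was not called.

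Klk1, a kallikrein protease that the rule did not use, was at 291 and 62.2 CPM (531 and 19 counts), 4.68-fold lower in T1D (2.97 to 7.83), and at 345 and 35.9 CPM in low-load pDC. Its near copy Klk1b27 was at 37.9 and 6.55 CPM, and reads of the family may be split between copies. Cox6a2, a subunit isoform of cytochrome c oxidase that marks pDC among blood cells, was at 290.2 and 75.4 CPM (529 and 23 counts), 3.85-fold lower in T1D (2.54 to 6.13). It was counted in 50.4% and 18.7% of pDC, in 23.6% and 12% after thinning, and in 0.613% and 0.0193% of other cells. Because the rule accepted Cox6a2 as a further marker, this is a description. Ly6d, a surface protein of lymphoid progenitors and pDC, was at 1108 and 426 CPM (2019 and 130 counts), 2.60-fold lower in T1D (2.18 to 3.13), and was counted in 79.4% and 53.3% of pDC and 51.9% and 29.3% after thinning. Ly6d was at 1329 and 425 CPM in low-load pDC and at 94.4 and 10.2 CPM in other cells. Havcr1, which encodes TIM-1, was at 76.8 and 9.83 CPM (140 and 3 counts), a ratio of T1D over control of 0.128 (0.0261 to 0.382). Fcrla, an Fc receptor-like protein, was at 125 and 26.2 CPM, 4.75-fold lower in T1D (2.37 to 11.1). The others called lower were Smim5, Klra17, Rpgrip1, Blnk and Plac8, 2.16- to 2.95-fold lower, and of these Smim5 and Plac8 were not called in low-load pDC. Ccr9, a rule gene, was at 610.0 and 347 CPM and was counted in 71.9% and 44% of pDC. Cd209d, a lectin with near copies, had the highest ratio of the list, at 85.0 and 128 CPM, and was not called.

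**Figure D3:**
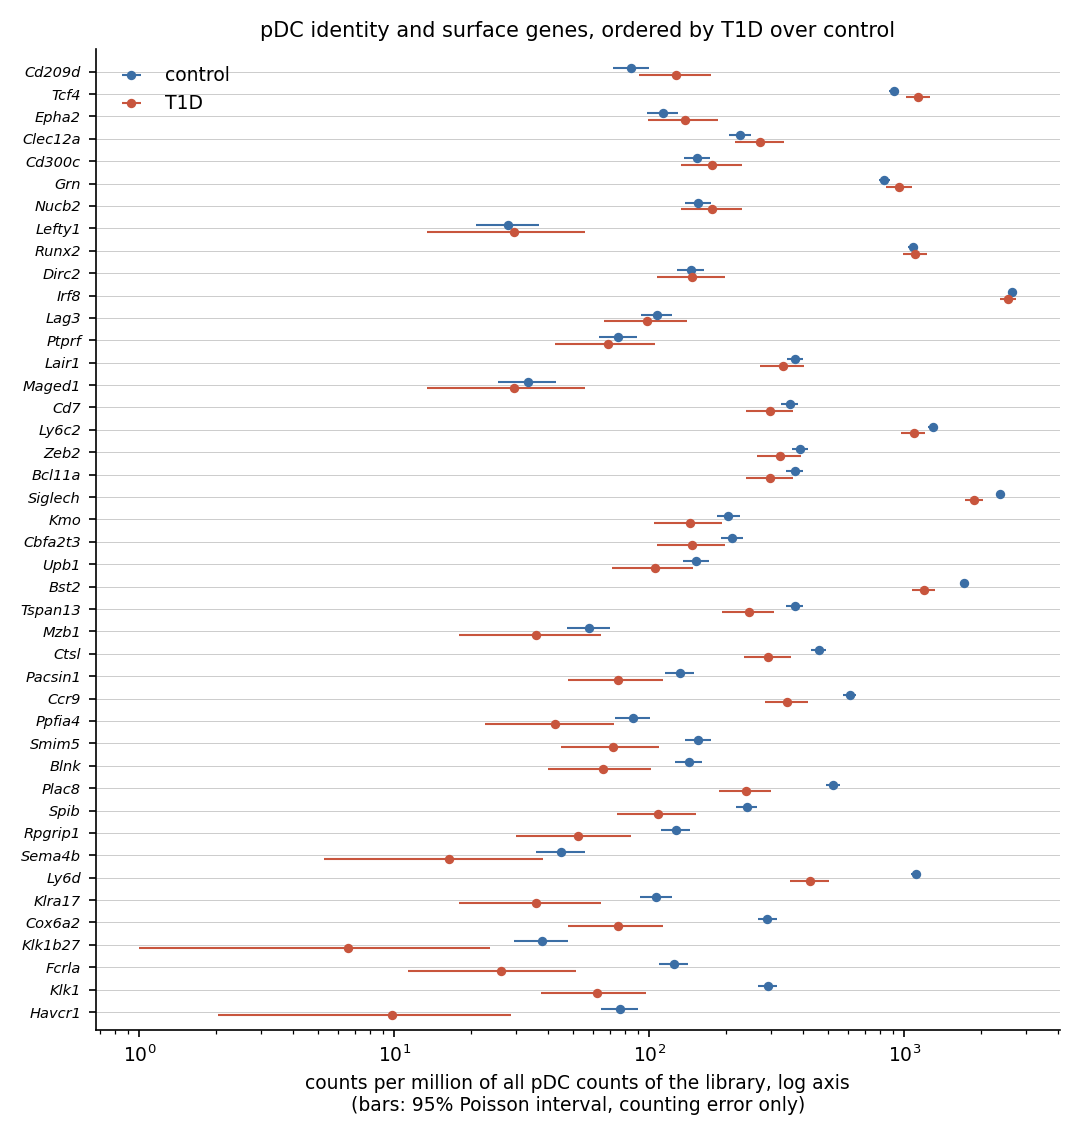
CPM (log axis) of the measured identity and surface genes in control and T1D pDC, ordered by the ratio of T1D over control. Points are summed counts of each library's pDC and bars are 95% Poisson intervals. Irf8 and Runx2 have overlapping bars, and Klk1, Cox6a2 and Ly6d have a T1D point below the control bar.

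The promoter windows of Siglech, which defines the cells, and Klk1, which was lower in T1D, are shown because both genes are near absent from other cells (Klk1 at 0.901 and 0.0195 CPM there). They run from 250 bases before to 50 bases after the start, from RefSeq on GRCm38.p6, at chr7:55767934-55768233 (plus strand) and chr7:44225110-44225409 (plus strand). Capitals mark CANNTG, the E box that E proteins such as TCF4 bind, which reads alike on both strands.
Siglech: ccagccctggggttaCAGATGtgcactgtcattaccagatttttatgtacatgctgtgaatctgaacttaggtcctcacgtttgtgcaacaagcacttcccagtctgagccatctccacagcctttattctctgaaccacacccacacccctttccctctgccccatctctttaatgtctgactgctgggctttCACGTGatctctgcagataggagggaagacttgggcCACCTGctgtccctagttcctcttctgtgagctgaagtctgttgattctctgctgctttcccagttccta
Klk1: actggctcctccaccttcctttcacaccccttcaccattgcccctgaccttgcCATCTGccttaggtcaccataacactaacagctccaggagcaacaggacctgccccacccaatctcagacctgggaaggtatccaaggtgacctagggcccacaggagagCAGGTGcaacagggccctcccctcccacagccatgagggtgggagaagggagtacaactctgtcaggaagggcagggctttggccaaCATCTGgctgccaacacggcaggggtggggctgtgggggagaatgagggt
Each window held 3 matches, and 72.3% of 32851 windows of the same length held at least 1, so a match is common.

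The same genes differed within subsets of the pDC. Among the 287 and 33 pDC with a Ccr9 count, Ly6d was at 1224 and 415 CPM and Klk1 at 358 and 73.3 CPM. Among the 112 and 42 pDC without one, Ly6d was at 841 and 433 CPM and Klk1 at 139 and 54.8 CPM. Runx2 was at 1113 and 1205 CPM with a Ccr9 count and 1015 and 1031 CPM without. Both Ly6d and Klk1 were thus lower in T1D on either side of the split, and Runx2 was close on both. Among the 178 and 28 pDC with fewer than 2 cell cycle counts Klk1 was at 456 and 80.4 CPM, and among the 221 and 47 pDC with at least 2 it was at 201 and 55.0 CPM.

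Genes of endosomal nucleic acid sensing were close between the libraries. Of 24 measured, 11 had a ratio above 1 and 13 below, with a median log2 ratio of -0.03, 0 called higher and 1 lower. Tlr7, the receptor for single-stranded RNA, was at 99.3 and 78.6 CPM, a ratio of T1D over control of 0.792 (0.495 to 1.22). Unc93b1, which escorts endosomal receptors, was at 358 and 301 CPM, and Slc15a4, a transporter the response needs, at 66.9 and 65.5 CPM. Irf5 was at 87.2 and 88.5 CPM and the adaptor Myd88 at 35.7 and 59.0 CPM. None of these was called. The called gene was Irf7, the regulator of the interferon response, at 91.1 and 32.8 CPM (166 and 10 counts), 2.78-fold lower in T1D (1.47 to 5.90). Irf7 was at 90.2 and 53.8 CPM in low-load pDC, where it was not called.

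Of the cytokines, Ccl3 was higher in T1D pDC. Interferon alpha genes were not analysed here. Of 14 interferon and cytokine genes in the tables, 3 were measured, and the other 11 had at most 19 counts in control and at most 1 in T1D pDC. Ifnb1 (interferon beta), singled out after its value was seen, had 0 counts in both, which allows up to 1.65 CPM in control and 9.83 CPM in T1D. Ccl3, an inflammatory chemokine, was at 43.3 and 124 CPM (79 and 38 counts), a ratio of T1D over control of 2.87 (1.90 to 4.28), and was called higher. It was counted in 9.27% and 25.3% of pDC and 2.01% and 13.3% after thinning, against 12.3% and 8.30% of other cells, where its level was 103 and 68.7 CPM. Ccl3 was also called higher in B cells, with a log2 ratio of 1.90 against 1.42 in pDC. In conventional dendritic cells its log2 ratio was 0.15 and it was not called. Ccl4, a related chemokine, was at 571 and 803 CPM and Il12a, a subunit of interleukin 12, at 37.9 and 78.6 CPM, below the call. In low-load pDC Il12a was at 41.5 and 89.7 CPM and was called higher with Ccl3.

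Type I interferon response genes mostly had ratios below 1. Of 18 measured, 14 had a ratio below 1, with 3 called lower and 0 higher. The median log2 ratio was -0.47, and -0.47 for the same genes in other cells. Ifi27l2a, an interferon-induced gene, was at 145 and 42.6 CPM, 3.41-fold lower in T1D (1.96 to 6.50), and at 102 and 8.76 CPM in other cells. Ifi203, of the DNA-sensing p200 family, was at 267 and 108 CPM in all pDC and 285 and 156 CPM in low-load pDC, where it was not called. Per cell, the list took a median of 21.4 and 15 counts per 10000, with quartiles of 13.1 and 33.8 in control and 8.89 and 25.4 in T1D, so the cells of the libraries overlapped.

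The classical MHC class II genes, which present peptides to CD4 T cells, were lower in T1D pDC. Of 9 measured genes of the pathway, 7 had a ratio below 1 and 4 were called lower, with a median log2 ratio of -0.89 (-0.66 in low-load pDC, -0.78 in other cells). H2-Aa was at 793 and 269 CPM (1445 and 82 counts), 2.95-fold lower in T1D (2.36 to 3.73). H2-Ab1, its partner chain, was at 502 and 157 CPM, 3.20-fold lower in T1D (2.39 to 4.37), and H2-Eb1 at 201 and 72.1 CPM, 2.79-fold lower in T1D (1.81 to 4.50). Cd74, the invariant chain, was at 1930.4 and 554 CPM, 3.49-fold lower in T1D (2.99 to 4.09). In low-load pDC H2-Aa was at 888 and 209 CPM, H2-Ab1 at 593 and 173 CPM and Cd74 at 2201 and 640.2 CPM, all called, and H2-Eb1 at 216 and 108 CPM was not.

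These genes varied widely between single pDC. The class II list took 0 to 312 counts per 10000 in control cells with a median of 33.1, and 0 to 181 in T1D cells with a median of 12.3. H2-Aa was counted in 57.6% and 21.3% of pDC and 39.1% and 17.3% after thinning, against 14.1% and 5.84% of other cells. Cd74 was also called lower in the other kept cells as a whole, at 682 and 199 CPM, in which the share of B cells differed as given above. In conventional dendritic cells Cd74 was at 13542 and 10245 CPM and H2-Ab1 at 4768 and 4689 CPM, and in B cells Cd74 was at 3772 and 5247 CPM. H2-Aa was used to choose the conventional dendritic cells and is not compared there. That choice can also hold up Cd74 and H2-Ab1 in both libraries. Their values in conventional dendritic cells are therefore a description and cannot be set against the difference in pDC. Whether the difference in pDC exceeds that in conventional dendritic cells or B cells was not tested.

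The promoters of H2-Aa and H2-Eb1 are shown because class II genes were lower together and share a promoter module whose Y box, an inverted CCAAT box, is bound by NF-Y. The windows are those of RefSeq on GRCm38.p6, at chr17:34287774-34288073 (minus strand) and chr17:34305617-34305916 (plus strand). Capitals mark ATTGG, or CCAAT where it lies on the other strand.
H2-Aa: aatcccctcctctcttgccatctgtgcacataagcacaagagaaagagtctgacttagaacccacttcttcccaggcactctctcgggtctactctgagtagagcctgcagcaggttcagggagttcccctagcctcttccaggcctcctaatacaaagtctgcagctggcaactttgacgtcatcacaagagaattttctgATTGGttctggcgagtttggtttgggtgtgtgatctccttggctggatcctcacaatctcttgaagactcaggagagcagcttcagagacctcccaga
H2-Eb1: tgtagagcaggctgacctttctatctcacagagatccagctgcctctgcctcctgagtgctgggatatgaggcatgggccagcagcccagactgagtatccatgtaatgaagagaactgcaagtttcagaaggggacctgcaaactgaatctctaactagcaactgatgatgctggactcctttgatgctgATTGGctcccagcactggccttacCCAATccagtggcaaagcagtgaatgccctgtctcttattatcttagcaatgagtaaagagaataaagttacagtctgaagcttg
The match in H2-Aa begins 48 bases before the start, and those in H2-Eb1 begin 59 and 35 bases before it. At least 1 match was found in 37.4% of all 32851 windows.

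**Figure D4:**
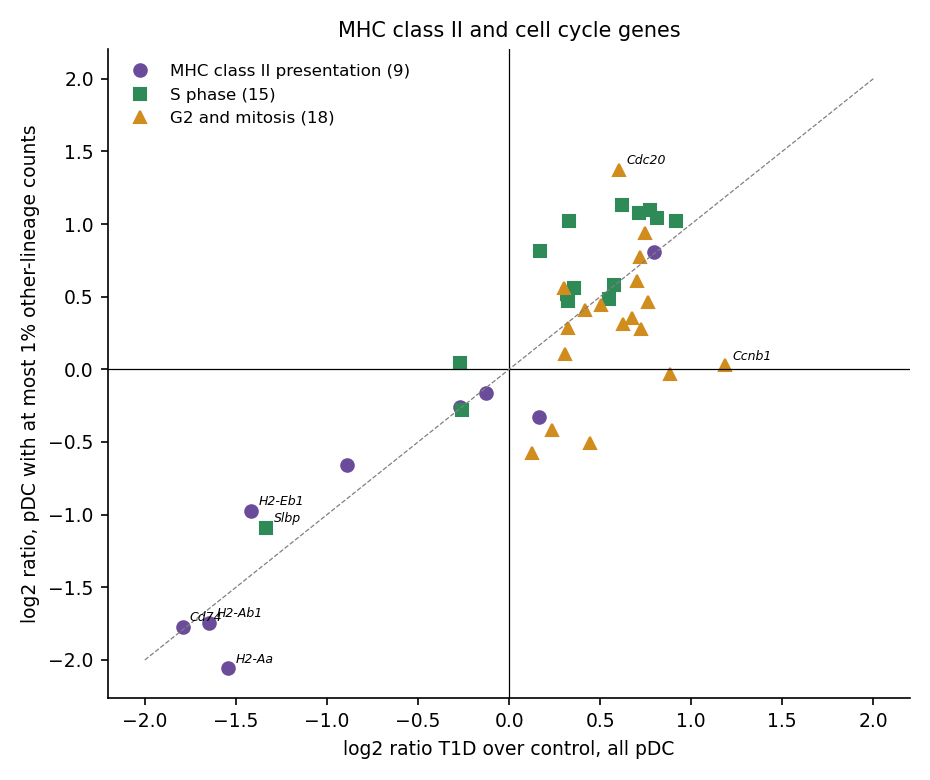
Log2 ratio of T1D over control of the measured MHC class II, S phase and G2 and mitosis genes, in all pDC (horizontal) and low-load pDC (vertical), 1 point per gene, with a dashed line of equal values. H2-Aa, H2-Ab1 and Cd74 lie below -1 on both axes, and H2-Eb1 lies at -1.42 and -0.97. Ccnb1 lies at 1.19 and 0.03.

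Of 16 measured MHC class I genes, 11 had a ratio below 1, with 3 called lower and a median log2 ratio of -0.43 (-0.41 in other cells). The called genes, H2-Q4, H2-Q6 and H2-Q7, are close copies, and their single values are uncertain. H2-Q7 was at 143 and 22.9 CPM, 6.22-fold lower in T1D (2.98 to 15.6). H2-Q6 was at 87.8 and 9.83 CPM (160 and 3 counts), a ratio of T1D over control of 0.112 (0.0229 to 0.333). B2m, the light chain of class I molecules, was at 1312 and 724 CPM and H2-K1 at 859 and 449 CPM, and neither was called, although H2-K1 was in low-load pDC (951 and 473 CPM).

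Lymphoid genes of pDC development mostly had ratios below 1 as well. Of 14 measured, 11 had a ratio below 1, with 5 called lower (Ly6d among them) and 1 higher, and a median log2 ratio of -0.47 (-1.09 in other cells). Cd79b, a chain of the B cell receptor complex, was at 77.9 and 13.1 CPM, and at 116 and 14.4 CPM in other cells. The constant-region genes Igkc and Ighm were called lower, but 1 control cell held 1577 of 2809 control counts of Igkc and 1 held 2322 of 5703 of Ighm. In low-load pDC Igkc was at 163 and 53.8 CPM and still called, and Ighm was at 1688 and 1095 CPM and not called. Id2, an inhibitor of E proteins, was called higher at 24.1 and 95 CPM (44 and 29 counts), a ratio of T1D over control of 3.94 (2.38 to 6.43), and was at 77.8 and 169.7 CPM in other cells. Il7r, the interleukin 7 receptor, was at 195 and 154 CPM and not called.

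Of 15 measured genes of dendritic progenitors and growth factor receptors, 9 had a ratio above 1 and 1 was called. Flt3 was at 195 and 380.0 CPM (355 and 116 counts), a ratio of T1D over control of 1.95 (1.57 to 2.41). Its log2 ratio of 0.95 fell short of the call in all pDC, and in low-load pDC it was at 224 and 461 CPM and called higher. Csf2rb2, a receptor subunit of the interleukin 3 family, was called lower at 98.2 and 39.3 CPM, 2.50-fold lower in T1D (1.39 to 4.92). Among 16 genes of pDC subsets and transitional dendritic cells, Cd4 at 82.8 and 29.5 CPM and S100a10 at 60.9 and 6.55 CPM (111 and 2 counts) were called lower with Ly6d, and none was called higher. The median log2 ratio of that list was 0.20 in all pDC and -0.09 in low-load pDC. S100a10 was also called lower in all other cells, at 66.4 and 28.3 CPM, in conventional dendritic cells and in B cells. Cd4 was called in none of these.

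Among 13 measured trafficking receptors and adhesion genes, 1 was called higher. Ccr1, a receptor for inflammatory chemokines, was at 94.9 and 199.8 CPM (173 and 61 counts), a ratio of T1D over control of 2.11 (1.55 to 2.83). In low-load pDC it was at 32.5 and 59.8 CPM and was not called, and in other cells it was at 313 and 434 CPM. Ccr2, a receptor for leaving the marrow, was at 325 and 544 CPM and was not called.

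Several stress-hormone and survival genes were higher in T1D pDC. Of 11 measured glucocorticoid response genes, 9 had a ratio above 1 and 2 were called higher (median log2 ratio 0.41, 0.59 in other cells). Fkbp5, a co-chaperone of the glucocorticoid receptor and a known target of it, was at 39.5 and 174 CPM (72 and 53 counts), a ratio of T1D over control of 4.40 (3.02 to 6.36). It was counted in 14.0% and 42.7% of pDC and 4.01% and 17.3% after thinning, against 11.4% and 19.7% of other cells. Fkbp5 was called higher in every cell group compared, at 43.1 and 191 CPM in low-load pDC, 18.2 and 261 CPM in conventional dendritic cells, 25.6 and 177 CPM in B cells and 34.0 and 81.4 CPM in all other cells. Tsc22d3, another target, was at 199 and 144 CPM and was not called. Cebpb was called higher in all pDC at 24.7 and 72.1 CPM but not in low-load pDC (10.6 and 29.9 CPM).

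Of 11 measured survival genes, 10 had a ratio above 1, with a median log2 ratio of 0.55 (0.59 in low-load pDC, 0.00 in other cells). Bcl2, which guards mitochondria against apoptosis, was called higher at 46.1 and 98.3 CPM, a ratio of T1D over control of 2.13 (1.36 to 3.27). Mcl1, of the same family, was at 387 and 570.1 CPM and Xiap, an inhibitor of apoptosis, at 133 and 242 CPM, below the call. Igf1r, the receptor of insulin-like growth factor 1, was called higher at 74.6 and 164 CPM, and was at 44.7 and 138 CPM in low-load pDC. H1f0, a linker histone, was at 40.6 and 203 CPM, a ratio of T1D over control of 5.00 (3.51 to 7.11), and Cirbp, whose RNA-binding product is induced by cold, was at 42.2 and 138 CPM. Both were also called higher in other cells, at 29.7 and 124 CPM and 20.4 and 54.1 CPM.

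Most listed cell cycle genes had ratios above 1 in T1D pDC. Of the measured genes on the G2 and mitosis and the S phase lists, Ccnb1 alone was called in all pDC. Ccnb1 was not called in low-load pDC, with log2 ratios of 1.19 in all and 0.03 in low-load pDC. Cell cycle genes outside these lists were also called, among them Pclaf, higher at 258 and 596 CPM, and Cks2, lower at 57.1 and 22.9 CPM. In low-load pDC Pclaf was at 290 and 790 CPM and called, and Cks2 was not called. All 18 measured G2 and mitosis genes had a ratio above 1, with a median log2 ratio of 0.62 (-0.23 in other cells) and 1 called. In low-load pDC 14 of 18 did, with a median of 0.33 and 0 called. Top2a, the topoisomerase of dividing cells, was at 571 and 944 CPM, a ratio of T1D over control of 1.65 (1.45 to 1.88), and Mki67 at 646 and 865 CPM. Of 15 S phase genes, 12 had a ratio above 1 (median 0.36, 0 called). In low-load pDC it was 14 of 16 (median 0.70), with 6 called higher, Mcm4, Mcm6, Rrm2, Uhrf1, Tipin and Dut. At least 2 counts of G2 and mitosis genes were found in 31.8% and 46.7% of pDC. With cells thinned to 1000 counts the shares were 18.0% and 33.3%, against 31.9% and 32.9% of other cells. For S phase genes the thinned shares were 17.5% and 29.3% (43.4% and 49.3% unthinned), against 20.6% and 20.5% of other cells. In low-load pDC the thinned shares were 16.5% and 27.7% for G2 and mitosis genes (28.1% and 40.4% unthinned). For S phase genes they were 16.8% and 25.5% there, against 42.2% and 42.6% unthinned, where the libraries were near equal. The thinned G2 and mitosis share of T1D pDC lay just above that of other cells in all pDC and below it in low-load pDC, and the part of free RNA in these shares was not tested.

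Mitochondrial and protein-folding genes mostly had ratios below 1. All 7 measured mitochondrially encoded genes had a ratio below 1, with 3 called lower and a median log2 ratio of -0.98, against -1.09 in other cells. mt-Nd2, a subunit of complex I, was at 681 and 282 CPM. Of 24 nuclear genes of oxidative phosphorylation, 19 had a ratio below 1 (median -0.38), and Cox6a2 and Cox7a2 were called. Of 24 genes of endoplasmic reticulum folding and secretion, 20 had a ratio below 1 (median -0.40, -0.37 in other cells), with Ssr4, Dnajb9 and Creld2 called lower. Hspa5, the chaperone BiP, was at 866 and 462 CPM, below the call. Of 11 heat shock genes, 9 had a ratio below 1 (median -0.48, -0.62 in other cells), and Dnaja1, a co-chaperone, at 188 and 72.1 CPM, was called with Hspe1 and Hspa4l. None of the 15 lysosomal genes was called (median -0.25). In low-load pDC the medians were -0.94 for mitochondrially encoded, -0.27 for oxidative phosphorylation, -0.23 for endoplasmic reticulum, -0.37 for heat shock and -0.37 for lysosomal genes. There mt-Co1, Cox7a2 and Creld2 were not called, and Ndufb8 and the lysosomal gene Lgmn were called higher. The other genes called in all pDC on these lists were called lower there too. Among immediate early genes, Fosb was called lower at 555 and 193 CPM and Ier3 higher at 31.8 and 199.8 CPM, a ratio of T1D over control of 6.28 (4.31 to 9.16), while Fos was at 1518 and 1399 CPM and not called. Fosb was also called lower in all other cells, at 257 and 119 CPM, in conventional dendritic cells and in B cells. In all other cells Ier3 was at 94.9 and 135 CPM and was not called. In B cells Ier3 was also called higher, at 42.8 and 193 CPM (97 and 23 counts). In conventional dendritic cells it was at 77.9 and 62.7 CPM and was not called.

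**Figure D5:**
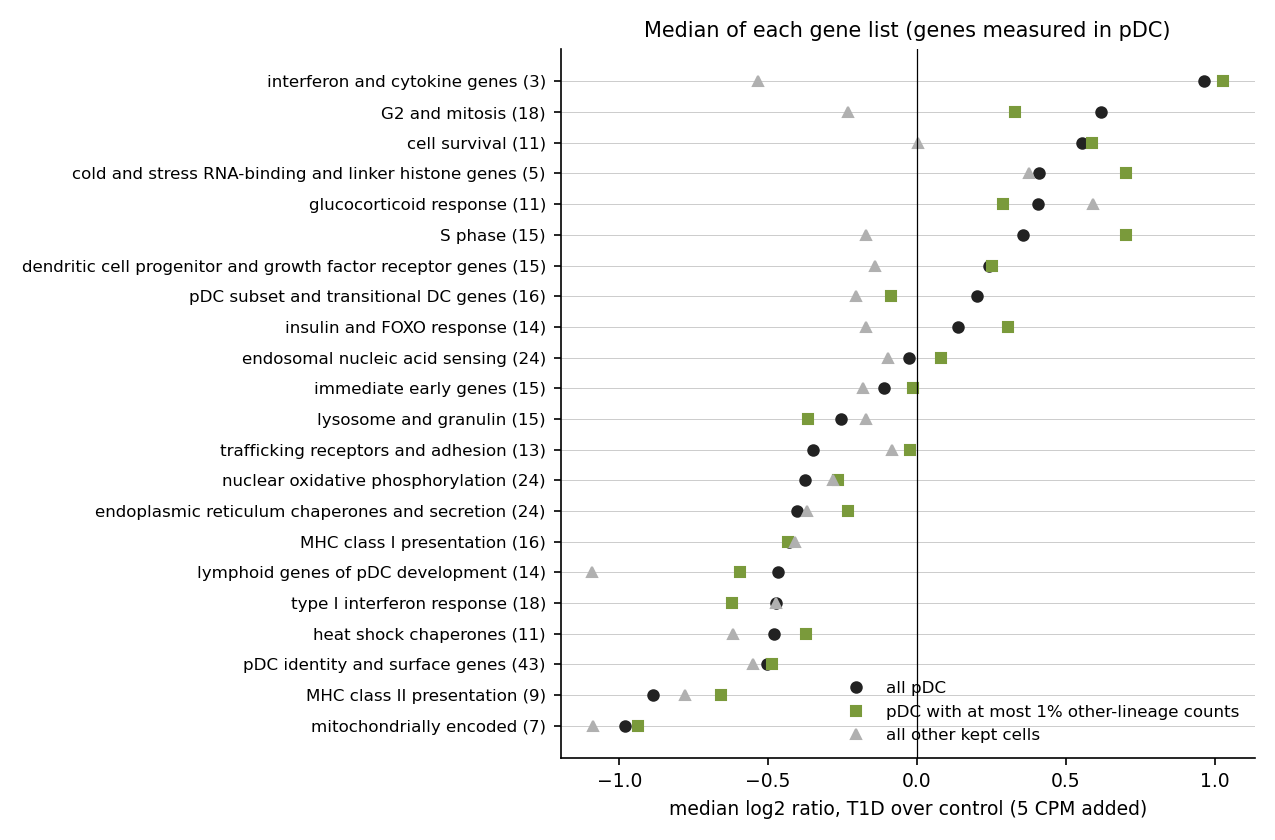
Median log2 ratio of T1D over control of each of the 22 gene lists in all pDC (circles), low-load pDC (squares) and all other kept cells (triangles), with the number of genes measured in pDC in brackets. The mitochondrially encoded list lies lowest in pDC, at -0.98, followed by MHC class II, at -0.89, and the interferon and cytokine list, of 3 genes, lies highest at 0.96.

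Among the genes with the smallest ratios, Oxct1, the enzyme by which cells use ketone bodies, was at 106 and 16.4 CPM (193 and 5 counts), 6.46-fold lower in T1D (2.72 to 20.1), and at 107 and 17.9 CPM in low-load pDC. Siglecg, an inhibitory lectin, was at 65.8 and 9.83 CPM (120 and 3 counts), a ratio of T1D over control of 0.149 (0.0304 to 0.447). Among those with the largest, Kif22, a mitotic kinesin, was at 23.6 and 102 CPM and Ank, a pyrophosphate transporter, at 13.2 and 62.2 CPM. Of Kif22, Ank, Shtn1, Baiap2, Pla2g7, AA467197 and Cd209e, all called higher in all pDC, Kif22, Ank and Shtn1 were also called in low-load pDC. Single cells set other values. The basophil proteases Mcpt8 and Prss34 were called higher, with 70 of the 75 T1D counts of Mcpt8 in 1 cell and 30 of the 30 of Prss34 in 1 cell. Jchain, a plasma cell gene, was called lower, with 1 control cell holding 377 of 548 counts. Elane and Mpo, granule genes of myeloid progenitors, were called lower in all pDC and had log2 ratios of 0.06 and 1.06 in low-load pDC.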

How the data were processed

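The deposited tables hold counts per gene and cell barcode as whole numbers, not normalized by the authors, for 1 control and 1 T1D library made with the Singleron GEXSCOPE kit, per the labels' protocols. Reads were converted with bcl2fastq 2.19 and counted with featureCounts with mm9 as the genome build, per the submitters' processing notes. Not given in the sources used here are the aligner, the annotation, the cell calling and any collapse of molecular identifiers, and values are called counts. The tables held 57494166 counts in 12880 control barcodes and 52022458 in 15771 T1D barcodes. Promoter coordinates are of GRCm38.p6, another build, and were not joined to the tables by position.

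Counts were summed over the pDC of each library and divided by all their counts, of which ribosomal RNA features held 30.6% and 31.1%. Intervals at 95% are Clopper-Pearson for shares, Poisson for CPM and conditional binomial for ratios, and treat counts as independent. Summed counts of 1 library per group allow no model of replicate spread, so edgeR served for TMM scaling only. No doublets were removed and no caller was run. Low-load pDC, by 82 marker genes of 10 lineages, were defined after their values were seen. The pDC rule and all lists were chosen with earlier results of these data known, lists share genes, and 7 list genes were in neither table.

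Genes were named by a rule: the rule markers, measured identity, sensing and interferon response genes, called genes and up to 4 of the most abundant in other lists, the 12 largest and 12 smallest called ratios, and the 20 most enriched. Ribosomal RNA and sex-linked features were not named, and some genes named by the rule are not reported here. Alternatives varied membership, cell filters, depth, scaling, the added CPM, the CPM minimum and the cell with most counts of a gene. In the simulated T1D over control sums of 14819 genes, the size rule recovered 10 of 25 genes raised and 12 of 25 lowered 2-fold. At 3-fold it recovered 24 and 19 of 25, and it called 21 of 14619 unchanged genes. The unchanged genes were not limited to the 5599 measured in pDC, so they give no rate of false calls among those. Sums over pDC were simulated, so the gathering of a gene's counts in a single cell, as for Mcpt8, was not covered. Python 3.11.15, numpy 2.4.6, scipy 1.17.1 and edgeR 4.0.16 were used.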

Additional observations from a re-analysis of the deposited data

Results flagged for a closer look

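Genes and lists whose T1D over control ratio pointed one way in pDC and the other way in all other kept cells are given here, and none of these differences between cell groups was tested. Mcpt8, a basophil protease, had a log2 ratio of 5.36 in pDC and -1.24 in other cells, and 1.97 in pDC without the cell with most counts in each library. Prss34, another basophil protease, had 3.64 in pDC, -1.21 in other cells and -0.53 without the cell with most counts in each library. The 3 measured interferon and cytokine genes had a median of 0.96 in pDC and -0.53 in other cells. Of these, Ccl3 was also called higher in B cells. The genes of pDC subsets and transitional dendritic cells had a median of 0.20 in pDC and -0.21 in other cells, but -0.09 in low-load pDC, the sign of the other cells. The G2 and mitosis genes had a median of 0.62 in pDC and -0.23 in other cells.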

How the results depend on the processing

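The pDC share stayed 5.17- to 8.35-fold lower in T1D under the 13 alternatives run. Counts of called genes moved more. Against 134 called higher, there were 251 in pDC with under 2 counts of lineage genes, 231 after thinning to 1000 counts, 287 with at most 1% neutrophil marker counts, 286 in low-load pDC, 234 with ribosomal RNA out of the totals, 263 at a minimum of 25 CPM, 47 at 100 CPM, 472 with no minimum and 73 without the cell with most counts of each gene. Against 159 called lower, there were 80 after thinning, 290 and 69 at minimums of 25 and 100 CPM and 359 with none. Calls that were higher made up 45.7% of all calls, 74.3% after thinning and 25.2% without the top cell, which removes 1 of 75 T1D cells against 1 of 399. The cause of the other shifts was not tested.

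Of 78 called genes followed over 17 alternatives, 17 were called in all, 59 fell below the size rule in at least 1, and 10 took the other sign in at least 1. After thinning, where 1 T1D count is 27.8 CPM, the log2 ratios were -1.78 for Baiap2, -1.78 for Cd209e, -1.39 for Ccnb1, -1.39 for Shtn1, -0.86 for Mcpt8, -0.86 for Prss34, 0.93 for Jchain, 0.38 for Mpo and 1.05 for Prtn3. In low-load pDC they were 0.056 for Elane, 1.06 for Mpo, 1.00 for Prtn3, -0.41 for Mcpt8 and -0.98 for Prss34. With under 2 lineage counts they were 0.91 for Elane, 0.85 for Mpo, 1.45 for Prtn3 and -0.57 for Prss34. With at least 3 Siglech counts Mcpt8 was at -0.31 and Prss34 at -0.78, with at most 1% neutrophil counts Ccnb1 was at -0.15, and without the top cell Prss34 was at -0.53. Of 22 list medians, 17 kept 1 sign throughout. The others ranged from -0.30 to 0.081 for nucleic acid sensing, -0.45 to 0.31 for insulin and FOXO response, -0.098 to 0.28 for pDC subsets, -0.45 to 0.0048 for trafficking and -0.22 to 0.090 for immediate early genes. The immediate early list was at 0.0043 with under 2 lineage counts and 0.090 with at most 1% neutrophil counts. No paired analysis was possible because each group has 1 library and the labels give no replicate numbers. The T1D pDC hold 305232 counts, where a count of 0 allows up to 9.83 CPM.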
